A study of Mus musculus with 12 samples.

Results

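This account covers 10 of the 21956 protein-coding genes measured in mouse mammary gland, those that make fatty acids from citrate and acetate, lengthen and desaturate them, or switch these enzymes on. They were taken by symbol from the tables of all protein-coding transcripts, and each symbol matched 1 gene. FPKM (fragments scaled to transcript length and library size) were summed over the transcripts of each gene. RNA came from gland number 4, the inguinal gland, of pregnant ICR mice, an outbred stock, on day 17 of pregnancy. From day 0, mice of the Met group ate food deficient in methionine and received methionine by intraperitoneal injection, in an amount equal to 35% of the control diet's methionine. Mice of the Met-Met group were handled in the same way, but 25% of the injected methionine was given as the dipeptide methionyl-methionine. For the Control group the labels give a control diet and state no injection. Each group has 4 libraries, and the labels give n = 4 but do not tie libraries to individual mice, so p-values measure only how these samples vary, part of which may be technical. Diet, methionine supply and injection cannot be told apart in comparisons with Control, and Met-Met against Met contrasts the 2 injected groups, which differ in the dipeptide.

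Fatty acids for milk fat are built in the cytosol of the secretory epithelium. Citrate leaves the mitochondrion through the carrier Slc25a1 and is split to acetyl-CoA by Acly, while Acss2 makes acetyl-CoA from acetate. Acaca turns acetyl-CoA into malonyl-CoA, and Fasn joins the units into a saturated chain. Elovl5 lengthens unsaturated chains, and Scd1 and Scd2 are desaturases that place a double bond in saturated chains. Srebf1 encodes SREBP-1, the transcription factor that turns most of these genes on, and Thrsp (Spot 14) is a small protein that promotes lipid synthesis in mammary gland and fat. Adipocytes of the fat pad, which surrounds the epithelium, express the same pathway, so each value is a sum over cell types.

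Levels below are FPKM divided by a factor per library (0.815 to 1.20, from the median ratio to the mean library), called scaled FPKM, and a value with ± gives the SD over the 4 libraries of a group. Differences are log2 fold changes of scaled FPKM + 1, with standard errors (SE) from limma. Calls required a Benjamini-Hochberg adjusted p under 0.05 across the 11809 genes that averaged 1 FPKM or more. All 10 genes passed that filter. Read numbers are not given in the tables, so the depth behind the values is unknown. The gland showed its defining epithelial markers: the mean log2(scaled FPKM + 1) of 10 luminal markers lay between 5.07 and 5.73 in all 12 libraries, and that of 10 secretory markers between 11.5 and 12.8. The secretory markers were not level between groups: 7 of 10 rose and 1 fell in Met against Control (median 0.71), 3 rose and 0 fell in Met-Met against Control (median 0.50), and 2 rose and 0 fell in Met-Met against Met (median −0.32). Their mean was 11.5 to 12.3 in Control, 12.2 to 12.8 in Met and 12.3 to 12.7 in Met-Met, and its part in the rises of Elovl5, Slc25a1, Acly and Thrsp was not tested. Some libraries stood apart in other ways. Averages of B cell markers were 2.66 to 3.17 for the libraries Control 1, 2 and 3. Met-Met 1, Met-Met 3 and Met 4 followed with 1.45 to 1.46, and all others had at most 0.330. Skeletal muscle and skin keratinocyte markers averaged 4.90 and 4.37 in Met 2 and at most 0.908 and 1.01 elsewhere. The noncoding RNA Gm26917 stood at 9013 to 9305 FPKM in Met 3, Met 4 and Met-Met 2 and at 72.3 to 99.2 in the other libraries. For the calls of the 10 genes against Control, fold changes without the libraries with high Gm26917 or raised B cell markers are given further on. Fits without Met 2 are given for some of the 10 genes only. For genes outside the 10 no such values are given.

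**Figure D1:**
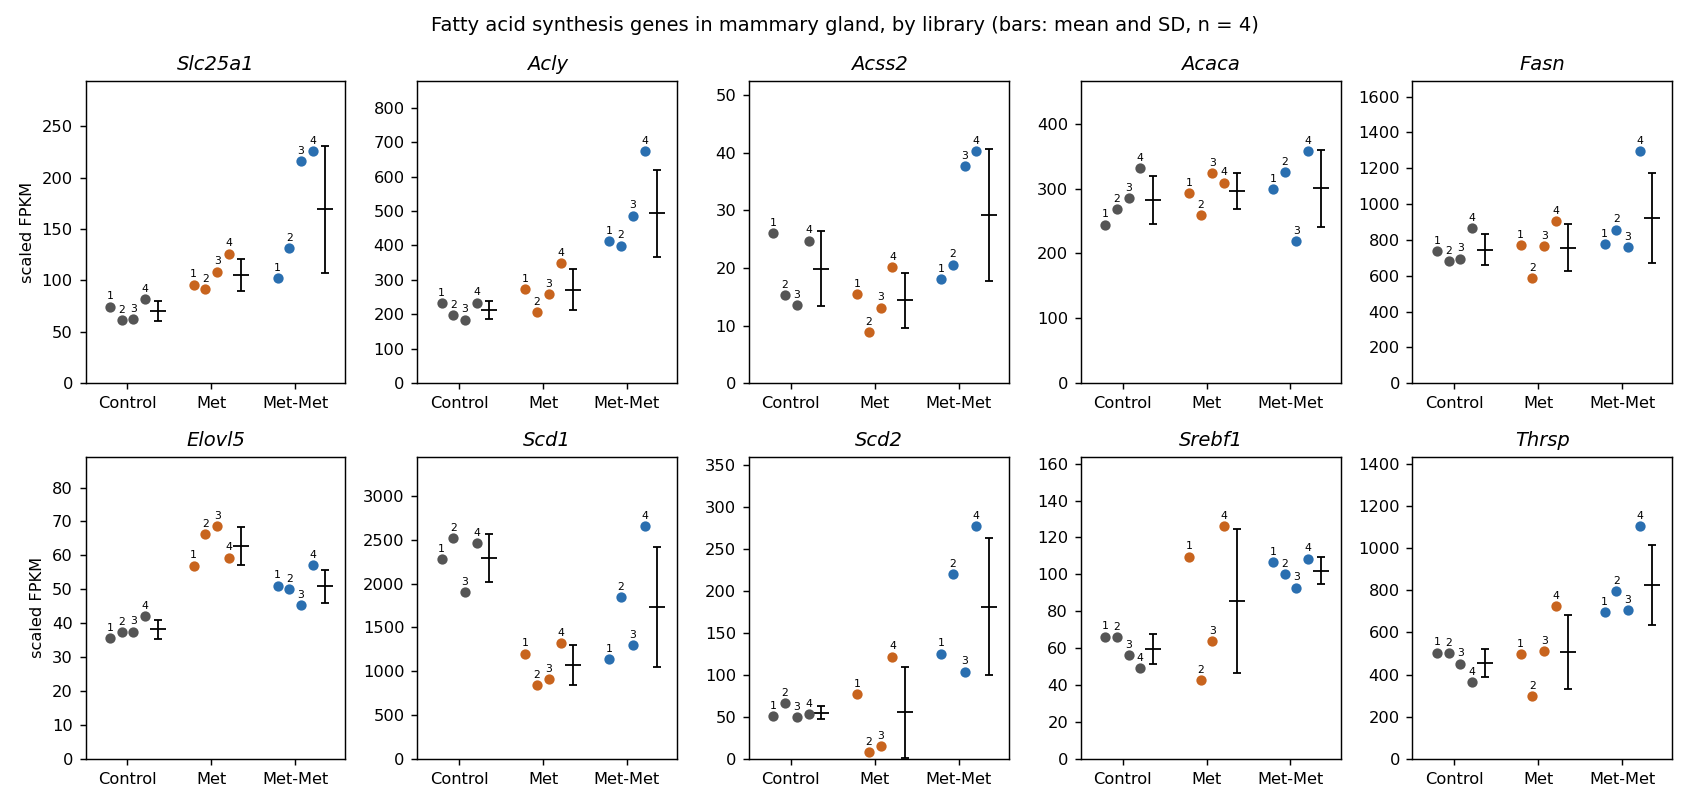
Each panel shows the scaled FPKM of a gene (vertical axis, from 0) in the 4 libraries of each group, numbered by replicate, with the mean and SD as a bar to the right. All genes but Elovl5 and Scd1 have their highest mean in Met-Met. Elovl5 is lowest in Control, the Scd1 values of Met all lie under those of Control, and Scd2 in Met runs from 7.71 to 122.

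In Met glands, 2 of the 10 genes were called against Control: Elovl5 rose and Scd1 fell. The share of all tested genes called in that comparison was 28.4%, with 13.6% higher and 14.8% lower, so the count is no higher than among genes at large. In Met-Met glands 4 of the 10 were called against Control, all higher, namely Slc25a1, Acly, Elovl5 and Thrsp, where 20.2% of all tested genes were called, 10.8% higher and 9.40% lower. Between Met-Met and Met, 2 of the 10 were called, Acly and Scd2, both higher in Met-Met, beside 11.6% of all tested genes, 5.94% higher and 5.66% lower. The median log2 fold change of the 10 genes was 0.09 for Met against Control, 0.64 for Met-Met against Control and 0.63 for Met-Met against Met, while that of all tested genes was 0.01, 0.00 and 0.00. The 4 Control libraries serve in both comparisons with Control and the 4 Met-Met libraries in both with Met-Met, so these counts are not independent of each other.

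**Figure D2:**
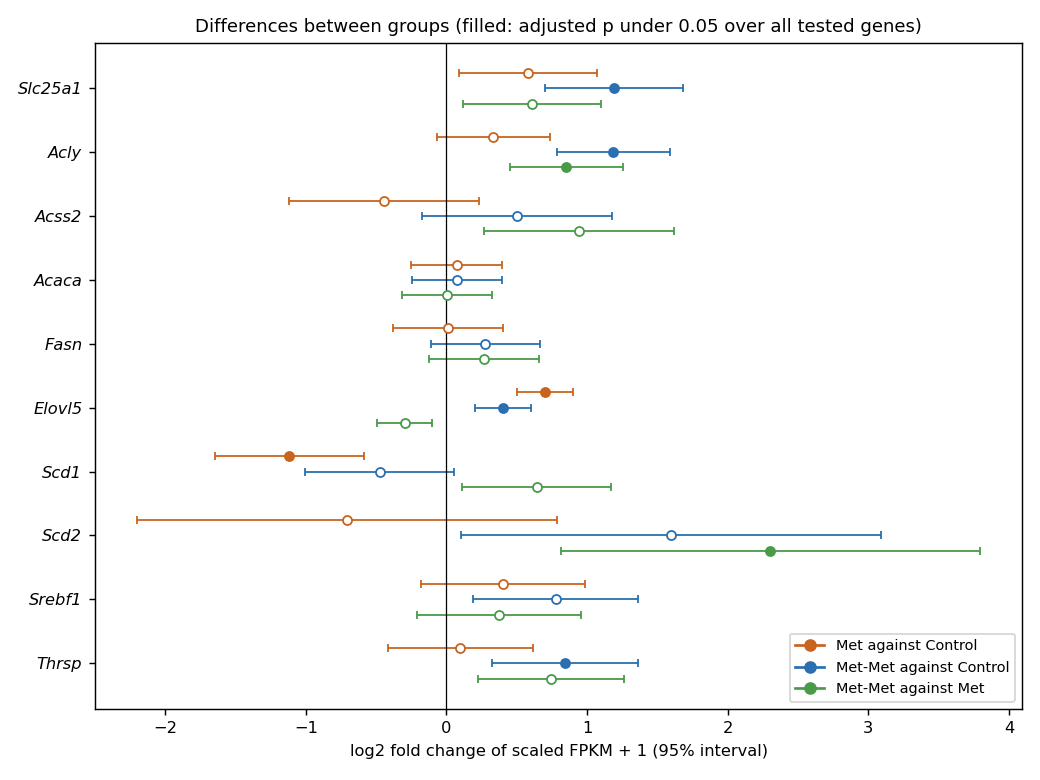
Points give the log2 fold change of scaled FPKM + 1 for each gene in the 3 comparisons, with 95% intervals from limma, and filled points are called. Acly lies above 0 in Met-Met against both other groups, Scd1 is called lower in Met against Control alone, and the Scd2 intervals are the widest.

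Slc25a1, Acly and Acss2, which serve the supply of acetyl-CoA, had their highest mean RNA levels in Met-Met. So did Acaca, Fasn, Scd2, Srebf1 and Thrsp, Acaca and Fasn by less than their spread. Acetyl-CoA itself was not measured. Slc25a1, the citrate carrier, stood at 74.6, 61.4, 62.7 and 81.9 scaled FPKM in Control 1 to 4, at 95.9, 91.5, 109 and 126 in Met 1 to 4, and at 102, 132, 216 and 226 in Met-Met 1 to 4. Each library of both treated groups lay above each Control library, and Met-Met split into a lower pair, replicates 1 and 2, and a higher pair, replicates 3 and 4. Slc25a1 rose in Met-Met against Control (log2 fold change 1.19, SE 0.226, adjusted p = 0.00467 by limma). The differences of 0.58 for Met against Control (adjusted p = 0.0745) and 0.61 for Met-Met against Met (adjusted p = 0.0999) were not called. Both were called when Met-Met 1 was left out, with adjusted p of 0.0341 and 0.0257. The first was also called with its 8 libraries alone (0.0152), and the second with the adipocyte covariate (0.0191) and with FPKM as deposited (0.0460).

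Acly, the ATP citrate lyase that releases acetyl-CoA from the exported citrate, was at 234, 198, 184 and 234 scaled FPKM in Control 1 to 4, at 272, 207, 258 and 349 in Met 1 to 4, and at 413, 399.6, 487 and 675 in Met-Met 1 to 4. No Met-Met library overlapped with the other groups, while Met and Control overlapped. The rise in Met-Met was 1.19 on the log2 scale against Control (SE 0.184, adjusted p = 0.00196) and 0.85 against Met (SE 0.184, adjusted p = 0.0137). Met against Control gave 0.33 (adjusted p = 0.199). The transcript ENSMUST00000165111 made up 90.7 ± 1.25% of Acly FPKM in Control, 89.5 ± 1.79% in Met and 89.6 ± 2.22% in Met-Met. The share of this main transcript differed by less than its spread. Of the minor transcripts, ENSMUST00000107389 held 8.12 ± 0.828%, 7.06 ± 0.699% and 6.89 ± 0.677% in the same order, differences from Control beyond its spread. ENSMUST00000107385 held 1.15 ± 1.98%, 3.36 ± 2.38% and 3.48 ± 2.48%. Acly against Met was called in 25 of 26 alternative analyses, the exception being the fit without the 6 libraries with lymphocyte markers (1.09, adjusted p = 0.0661).

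Acss2, which activates acetate, had the lowest level of the 10 genes in each group. It was at 19.9 ± 6.43 scaled FPKM in Control, 14.4 ± 4.73 in Met and 29.2 ± 11.5 in Met-Met. The groups overlapped, with Met-Met 3 and 4 at 37.7 and 40.3 and Met-Met 1 and 2 at 18.1 and 20.6. No comparison was called: Met-Met against Met gave 0.94 (SE 0.310, adjusted p = 0.0672), which was called in 4 of 26 alternative analyses: with the adipocyte marker mean as a covariate (adjusted p = 0.0229), without Met 4 (0.0330), with FPKM as deposited (0.0427) and without Met-Met 1 (0.0493).

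Neither Acaca nor Fasn, the enzymes that build the chain, was called in any comparison. Acaca, acetyl-CoA carboxylase 1, was at 283 ± 36.6 scaled FPKM in Control, 296 ± 28.0 in Met and 301 ± 59.5 in Met-Met. Its differences were 0.07 for Met against Control (95% interval −0.25 to 0.39), 0.07 for Met-Met against Control (−0.25 to 0.40) and 0.00 for Met-Met against Met (−0.32 to 0.32). These intervals hold for the main scaling, are not adjusted over all tested genes, and leave changes within them possible. After quantile normalization the Acaca difference for Met against Control lies outside its interval, as given below. Fasn, the fatty acid synthase, was at 746 ± 85.0 in Control, 757 ± 131 in Met and 923 ± 254 in Met-Met. Met-Met 4, at 1298, stood above every other library, and the remaining Met-Met libraries at 759 to 858 lay within the range of Control and Met. The Fasn differences were 0.01 (95% interval −0.38 to 0.40), 0.28 (−0.11 to 0.67) and 0.27 (−0.12 to 0.65) in the same order, none called, and their direction for Met against Control turns negative with FPKM as deposited (−0.30) and with quantile normalization (−0.37). The Acaca difference for Met against Control also turns negative with these scalings (−0.24 and −0.27). Over all alternatives, Fasn ran from 0.10 to 0.78 in Met-Met against Control and from 0.09 to 0.60 in Met-Met against Met, without a call. The unscaled values shift the median of all tested genes by −0.25 for Met against Control, −0.12 for Met-Met against Control and 0.15 for Met-Met against Met, and changes here are relative to the scaled median.

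Elovl5, an elongase of polyunsaturated fatty acids, had the smallest relative spread of the 10 genes in Control and in Met. It was at 35.7, 37.4, 37.5 and 42.1 scaled FPKM in Control 1 to 4, at 57.0, 66.3, 68.5 and 59.3 in Met 1 to 4, and at 51.1, 49.98, 45.4 and 57.0 in Met-Met 1 to 4. Both treated groups lay wholly above Control, and Met and Met-Met met at 57.0. Elovl5 rose by 0.70 in Met (SE 0.0906, adjusted p = 0.000426) and by 0.40 in Met-Met (SE 0.0906, adjusted p = 0.0106) against Control. Met-Met against Met gave −0.30 (adjusted p = 0.0525), which was called in 4 of 26 alternative analyses: without Met 4 (0.0400) or Met-Met 4 (0.0491), with quantile normalization (0.0297) and with a mean of 5 FPKM or more (0.0436). Besides the fits with the adipocyte covariate and without the libraries with lymphocyte markers, given further on, the rise in Met-Met against Control was not called after quantile normalization (0.25, adjusted p = 0.0517) or with the B cell marker mean as a covariate (0.30, adjusted p = 0.0681).

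Scd1, the main stearoyl-CoA desaturase, was the most abundant of the 10 genes in every group. It stood at 2283, 2519.6, 1905 and 2459 scaled FPKM in Control 1 to 4, at 1202, 843, 909 and 1319 in Met 1 to 4, and at 1135, 1846, 1297 and 2652 in Met-Met 1 to 4. Every Met library lay below every Control library, whereas Met-Met spanned the values of both. Scd1 fell by 1.12 on the log2 scale in Met against Control (SE 0.243, adjusted p = 0.00614). Met-Met against Control gave −0.48 (SE 0.243, adjusted p = 0.184), which was called without Met-Met 4 (−0.71, adjusted p = 0.0405). Met-Met against Met gave 0.64 (adjusted p = 0.106), called with FPKM as deposited (0.82, adjusted p = 0.0475) and after quantile normalization (1.02, adjusted p = 0.0269).

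Markers of adipocytes, which also express Scd1, moved with the groups. In Met 11 of 15 adipocyte markers fell against Control and 1 rose, and in Met-Met 12 fell and 0 rose. Summed over the list, scaled FPKM ran from 3224 to 4009 in Control, from 2104 to 3027 in Met, and in Met-Met from 1093 to 2742, and none of the 15 was listed at 0 in any library. Fabp4, the fatty acid binding protein of adipocytes, was at 1471 ± 114 in Control, 833 ± 131 in Met and 684 ± 282 in Met-Met. Car3, another abundant marker of the list, also fell against Control (−1.126 in Met and −1.520 in Met-Met). Cfd, likewise abundant, was the marker that rose in Met against Control (1.304, adjusted p = 0.00396 by limma). In Met-Met against Control it gave 0.619 and was not called. Its FPKM are part of the sums above. Fibroblast markers moved with Scd1 as well: 7 of 9 fell and 0 rose in Met against Control (median −1.38), 3 fell and 0 rose in Met-Met against Control (−0.30), and 7 rose and 0 fell in Met-Met against Met (0.86). Their summed scaled FPKM was 1416 to 1861 in Control, 646 to 818.5 in Met and 1120 to 1658 in Met-Met, with none at 0. Erythrocyte markers fell in 5 of 5 genes in both treated groups against Control. In Met against Control 6 of 8 macrophage markers fell and 0 rose, and 5 of 10 myoepithelial markers fell and 1 rose. In Met-Met against Met 5 macrophage markers rose and 0 fell, and 4 myoepithelial markers rose and 1 fell. The part of these cell types in the Scd1 difference was not tested. In bulk tissue, fewer cells of a type and less RNA per cell cannot be told apart. With the adipocyte marker mean as a covariate Scd1 gave −0.68 for Met against Control (adjusted p = 0.563) and 0.04 for Met-Met against Control (adjusted p = 0.984). That fit called 6 of all genes for Met against Control and 0 for Met-Met against Control, since the marker mean separates Control from the other libraries. At an unadjusted p under 0.05 it gave 1607 and 1353 genes. With the same covariate, Acly was still called in Met-Met against Met (0.97, adjusted p = 0.00511), where the adipocyte marker means overlap at 4.24 to 5.53 in Met-Met and 4.95 to 5.24 in Met. Scd2 was not (2.29, adjusted p = 0.0720). Against Control, Elovl5 in Met (0.80, adjusted p = 0.114) and Slc25a1 (2.31, 0.0818), Acly (1.99, 0.0847), Elovl5 (0.51, 0.382) and Thrsp (1.40, 0.352) in Met-Met kept their sign and were not called.

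**Figure D3:**
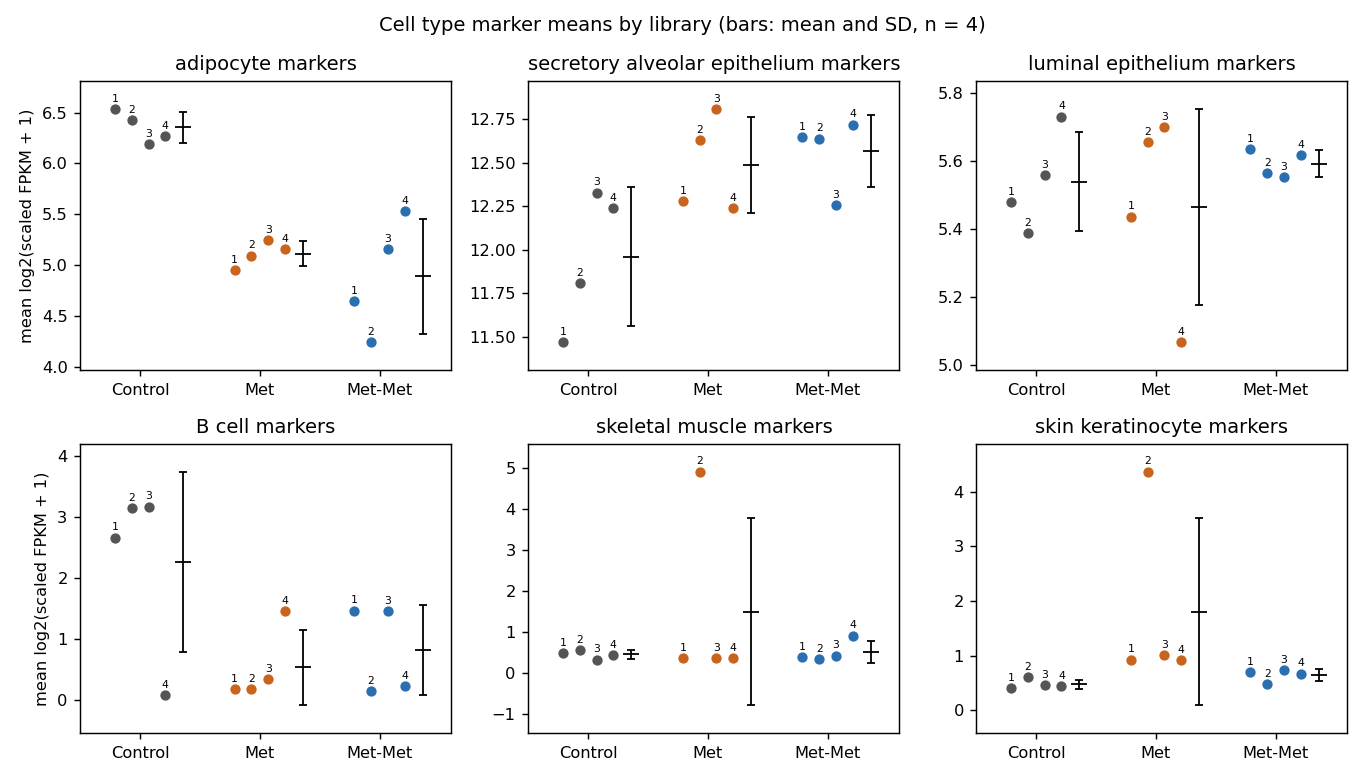
Points give, per library, the mean log2(scaled FPKM + 1) of the markers of a cell type, numbered by replicate, with group mean and SD. Adipocyte marker means are 6.19 to 6.53 in Control and 4.24 to 5.53 in the other libraries, muscle and skin markers stand out in Met 2 alone, and B cell markers are high in Control 1, 2 and 3.

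Scd2, a paralogue of Scd1 with the same reaction, had the widest relative spread among the 10 genes in each treated group. It was at 51.2, 66.5, 49.5 and 53.6 scaled FPKM in Control 1 to 4, at 77.1, 7.71, 15.4 and 122 in Met 1 to 4, and at 125, 219.8, 104 and 277 in Met-Met 1 to 4. Met 2 and Met 3 lay below all Control libraries and Met 1 and Met 4 above them, so that Met and Control had near-equal means (55.5 ± 54.1 and 55.2 ± 7.71), while each Met-Met library lay above each Control library. Met-Met against Met gave 2.30 (SE 0.685, adjusted p = 0.0490). The call is at the edge: it held in 6 of 26 alternative analyses, with adjusted p from 0.00793 to 0.130. It was lost without any of the 4 Control libraries (0.0596 to 0.0661), without Met 2 (0.103) or Met 3 (0.130) and without any of the 4 Met-Met libraries (0.0578 to 0.127). Met-Met against Control, at 1.60 (SE 0.685, adjusted p = 0.119), was not called in the joint fit, in which the spread within Met enters the error, and was called when the 8 libraries of the comparison were fitted alone (adjusted p = 0.00677).

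Srebf1 and Thrsp stand for the control of the pathway. Srebf1 was at 66.2, 66.1, 56.2 and 49.4 scaled FPKM in Control 1 to 4, at 109.6, 42.7, 63.9 and 126 in Met 1 to 4, and at 107, 100.1, 92.8 and 108 in Met-Met 1 to 4. As with Scd2, Met 1 and 4 were high and Met 2 and 3 low, whereas the Met-Met libraries lay close together and wholly above Control. No comparison of Srebf1 was called. Met-Met against Control gave 0.78 (SE 0.268, adjusted p = 0.0608), called with its 8 libraries alone (0.00298) and without Met 2 (0.0144) or Met 4 (0.0294). Met against Control gave 0.40 (adjusted p = 0.287), called without Met 2 (0.69, adjusted p = 0.0281). Its main transcript, ENSMUST00000134660, held 53.0 ± 5.12% of Srebf1 FPKM in Control, 59.1 ± 8.67% in Met and 55.7 ± 3.10% in Met-Met. The ranges overlapped, at 47.9 to 60.1% in Control, 52.1 to 70.1% in Met and 52.7 to 58.4% in Met-Met.

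Thrsp was at 503, 501, 452 and 363 scaled FPKM in Control 1 to 4, at 496, 297, 511 and 723 in Met 1 to 4, and at 697, 795, 703 and 1102 in Met-Met 1 to 4. All Met-Met libraries lay above Control, and only Met 4 among the Met libraries reached into the Met-Met range. Thrsp rose by 0.84 in Met-Met against Control (SE 0.237, adjusted p = 0.0274). The call held in 15 of 26 alternative analyses. It was lost without any of the 4 Control libraries, Met-Met 2 or Met-Met 4 (adjusted p from 0.0516 to 0.0771). Further losses were with FPKM as deposited (0.0780), after quantile normalization (0.0676), with the adipocyte covariate (0.352) and with the replicate block. The call was also lost without the 6 libraries with lymphocyte markers. Met-Met against Met gave 0.74 (adjusted p = 0.0619), called in 4 of 26: without Met 4 (0.94, adjusted p = 0.0139), without the 3 libraries with high Gm26917 (1.08, 0.0435), with FPKM as deposited (0.0338) and after quantile normalization (0.0356).

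Groups did not overlap for 3 of the 10 genes in Met against Control (26.9% of all tested genes), 6 in Met-Met against Control (27.0%) and 1 in Met-Met against Met (16.2%). Without the 3 libraries with high Gm26917, each of the members called against Control was still called: Elovl5 (0.68) and Scd1 (−1.18) in Met, and Slc25a1 (1.28), Acly (1.28), Elovl5 (0.41) and Thrsp (0.85) in Met-Met. Without the 6 libraries in which lymphocyte markers were raised, which leaves Control 4 alone in its group and assumes it varies like the others, the same fold changes were 0.59 and −1.34 in Met and 1.07, 1.15, 0.34 and 1.36 in Met-Met, and none was called.

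The promoters of 4 genes are shown because these genes were called higher in Met-Met than in Control, from 250 bases before to 50 bases after the gene start in RefSeq (build GRCm38.p6). Acly lies at chr11:100527951-100528250 on the minus strand, Slc25a1 at chr16:17928170-17928469 on the minus strand, Thrsp at chr7:97417501-97417800 on the minus strand and Elovl5 at chr9:77917115-77917414 on the plus strand. Capitals mark matches on either strand to the NF-Y box CCAAT, the GC box GGGCGG and the E-box CACGTG.
Acly: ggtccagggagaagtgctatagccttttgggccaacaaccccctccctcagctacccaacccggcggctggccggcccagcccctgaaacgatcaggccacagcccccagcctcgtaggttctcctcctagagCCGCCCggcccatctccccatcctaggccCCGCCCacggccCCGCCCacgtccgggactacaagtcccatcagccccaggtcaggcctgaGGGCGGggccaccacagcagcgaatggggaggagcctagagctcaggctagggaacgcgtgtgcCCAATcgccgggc
Slc25a1: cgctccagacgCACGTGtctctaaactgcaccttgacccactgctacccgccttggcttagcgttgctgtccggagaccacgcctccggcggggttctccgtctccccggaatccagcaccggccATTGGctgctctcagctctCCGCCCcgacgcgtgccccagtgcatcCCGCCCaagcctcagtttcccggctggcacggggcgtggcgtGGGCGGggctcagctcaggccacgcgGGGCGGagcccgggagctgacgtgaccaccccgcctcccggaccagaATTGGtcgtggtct
Thrsp: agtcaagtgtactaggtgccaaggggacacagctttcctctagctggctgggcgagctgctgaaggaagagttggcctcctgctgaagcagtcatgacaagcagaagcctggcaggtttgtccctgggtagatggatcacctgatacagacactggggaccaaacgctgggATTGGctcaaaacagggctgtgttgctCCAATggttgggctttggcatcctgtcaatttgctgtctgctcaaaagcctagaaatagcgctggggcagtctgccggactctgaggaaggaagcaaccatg
Elovl5: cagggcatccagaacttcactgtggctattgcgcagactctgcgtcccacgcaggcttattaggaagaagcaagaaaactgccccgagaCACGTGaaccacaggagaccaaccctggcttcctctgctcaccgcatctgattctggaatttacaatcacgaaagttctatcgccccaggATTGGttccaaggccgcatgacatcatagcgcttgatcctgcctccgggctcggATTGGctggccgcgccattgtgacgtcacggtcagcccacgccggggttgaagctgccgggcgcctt
The RefSeq table holds a promoter for 8 of the 10 genes, in 10 entries, as Srebf1 has several starts. CCAAT was found in 8 of the 10 entries and in 37.4% of all 32851 promoters in the table. The Acaca entry and 1 Srebf1 entry lacked it. GGGCGG was in 5 of the 10 entries against 35.7% of all promoters, and CACGTG in 2 of 10 against 7.15%. In the printed promoters, Thrsp has CCAAT matches starting at −79 and −52 from the gene start and Elovl5 at −71 and −17, while Acly and Slc25a1 carry 4 GC boxes each. The letters TCACNCCAC of a sterol regulatory element were in none of the 10 windows and in 1.24% of all promoters. A match is a run of letters and no evidence of binding, and sites outside these windows were not searched.

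Ratios of paired genes within a library do not depend on scaling. The ratio of Scd1 to Scd2 was 44.6, 37.9, 38.5 and 45.9 in Control 1 to 4, 15.6, 109, 59.2 and 10.8 in Met 1 to 4, and 9.05, 8.40, 12.5 and 9.58 in Met-Met 1 to 4. Control and Met-Met each formed a narrow range with a wide gap between them, and Met spread from within the Met-Met range (Met 4) to above that of Control. On the log2 scale the mean was 5.38 ± 0.142 in Control and 3.29 ± 0.248 in Met-Met, a difference of −2.09 (SE 0.143). The exact two-sided permutation p was 0.0286, the smallest that 4 against 4 libraries allow, and 0.129 after Benjamini-Hochberg adjustment over the 9 tests of 3 ratios and 3 comparisons. Met-Met against Met differed by −1.73 (exact permutation p = 0.0571, adjusted 0.171), and Met against Control by −0.36 (exact permutation p = 0.657, adjusted 0.657).

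The ratio of Acly to Acss2, the enzymes that make cytosolic acetyl-CoA from citrate and from acetate, was 8.96 to 13.6 in Control, 17.3 to 23.5 in Met and 12.9 to 22.8 in Met-Met. Met and Control did not overlap. Their log2 means differed by 0.81 (SE 0.185, exact permutation p = 0.0286, adjusted 0.129), and Met-Met and Control by 0.67 (exact permutation p = 0.0857, adjusted 0.193). Fasn to Acaca, the consecutive enzymes of chain synthesis, stayed between 2.26 and 3.62 in all 12 libraries, and its log2 means differed by −0.06, 0.20 and 0.26 in the 3 comparisons (exact permutation p = 0.6, 0.2 and 0.2).

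**Figure D4:**
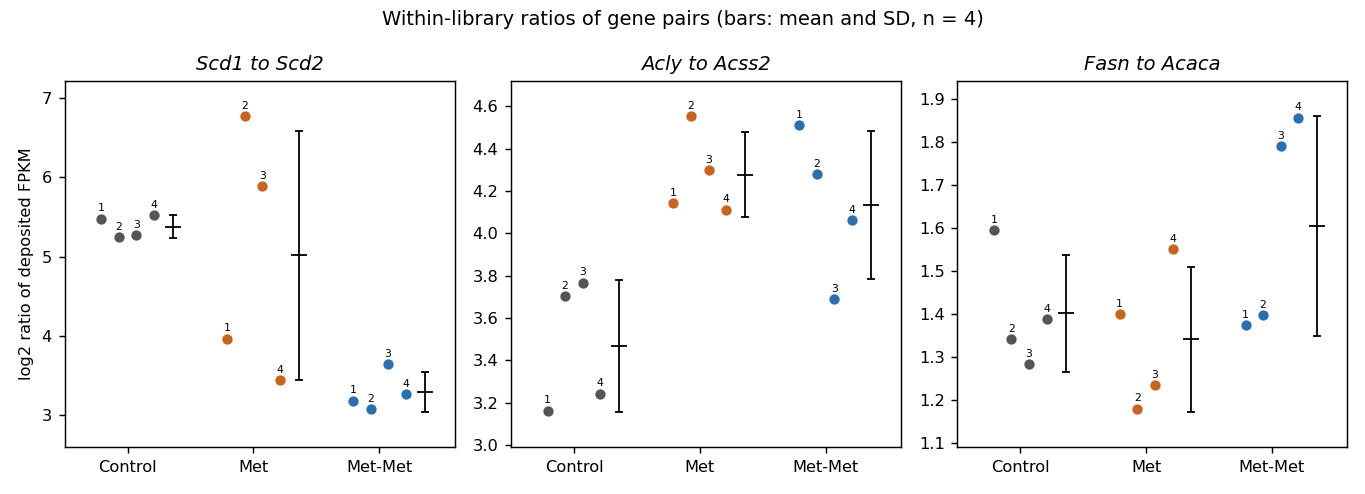
Points give the log2 ratio of deposited FPKM for 3 gene pairs in each library, numbered by replicate, with group mean and SD. Scd1 to Scd2 falls from 5.24 to 5.52 in Control to 3.07 to 3.64 in Met-Met and is spread over 3.44 to 6.77 in Met.

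Genes around the 10 were followed in 4 lists, whose counts stand beside the 28.4%, 20.2% and 11.6% of all tested genes called, where the first share is that of Met and the second that of Met-Met, each set against Control, and the third is that of the injected groups against each other. Calls in these lists come from the main fit alone. With the adipocyte covariate, only 6 of all tested genes were called in Met against Control and 0 in Met-Met against Control. In the list of citrate and NADPH supply, 6 of 15 genes rose and 2 fell in Met against Control, with a median of 0.34. In Met-Met 9 rose and 0 fell (median 0.42), and against Met 4 rose and 1 fell (median 0.22). Mpc2, a subunit of the mitochondrial pyruvate carrier, was at 170.0 ± 23.4 in Met and 91.8 ± 12.6 in Control (0.88, adjusted p = 0.000661), and Pdhb, of pyruvate dehydrogenase, rose by 0.64 there. Of the NADPH-producing enzymes, Idh1 and G6pdx fell in Met against Control (−0.87 and −0.48) and were higher in Met-Met than in Met (0.61 for each). Most called fibroblast, macrophage and myoepithelial markers share these directions. The NADPH-producing Me1 and Pgd did not fall in Met against Control (0.55 and 0.01, not called). Both rose in Met-Met against Control (0.82 and 0.85), and against Met Pgd rose (0.84) and Me1 was not called (0.27). G6pdx, the first enzyme of the pentose phosphate pathway, stood at 41.9 ± 1.88 in Control, 29.8 ± 3.24 in Met and 46.1 ± 5.32 in Met-Met. Tkt, of the same pathway, rose in Met-Met against Control (0.78) and against Met (0.58), and Dlat, of pyruvate dehydrogenase, rose in Met (0.53) and Met-Met (0.72) against Control.

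Of 20 other genes of elongation and desaturation, 16 passed the filter. In Met against Control 7 rose and 2 fell (median 0.28), in Met-Met against Control 6 rose and 1 fell (median 0.37), and in Met-Met against Met 1 rose and 2 fell (median 0.23). Fads1, the delta-5 desaturase, rose in both (0.79 in Met, 0.72 in Met-Met), as did Fads2, the delta-6 desaturase (0.48 and 0.99), and the elongases Elovl1 (0.80 and 0.94) and Elovl7 (0.39 and 0.54). Hsd17b12, a reductase of the elongation cycle, was at 104 ± 18.4 in Control, 212 ± 35.8 in Met and 132 ± 8.63 in Met-Met. It rose in Met against Control (1.02, adjusted p = 0.000620) and was lower in Met-Met than in Met (−0.66, adjusted p = 0.0125). Fads3 fell in both treated groups against Control (−1.36 and −1.004).

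Among 9 other enzymes of acetyl-CoA and malonyl-CoA, 1 rose and 1 fell in Met, 2 rose and 2 fell in Met-Met against Control, and 0 rose and 1 fell in Met-Met against Met, with medians of 0.08, −0.14 and −0.11. In Met against Control and in Met-Met against Met the called share of this list was below that of all tested genes. Acat2, a thiolase that makes acetoacetyl-CoA, was called higher in Met (1.08) and in Met-Met (1.25), and Aacs, which activates acetoacetate for lipid synthesis, in Met-Met (1.02). Mlycd, which degrades malonyl-CoA, fell in Met-Met against Control (−0.66) and against Met (−0.74). Acss3, a mitochondrial relative of Acss2, fell in both treated groups against Control (−0.71 and −1.43).

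In the list of 24 genes that control lipid synthesis, 4 rose and 1 fell in Met, 7 rose and 1 fell in Met-Met against Control, and 3 rose and 0 fell in Met-Met against Met, with medians of 0.12, 0.05 and 0.01. The called share was below that of all tested genes in Met against Control and close to it in Met-Met against Met. Lpin1, a phosphatidate phosphatase and coregulator, rose by 1.10 in Met and 0.66 in Met-Met. The kinase Akt1 rose by 0.49 and 0.51, and Mlx, the partner of ChREBP, by 0.46 and 0.67. Prkaa2, a catalytic subunit of AMPK, was higher in Met-Met than in Control (0.92) and Met (0.61), while Prkaa1, the other catalytic subunit, fell in Met (−0.33). Nr1h3, the oxysterol receptor LXR alpha, fell in Met-Met against Control (−0.63). Outside the naming rule, and chosen after its values were seen, is Insig1, which holds SREBP in the endoplasmic reticulum and is itself an SREBP target. It was at 24.3 ± 5.74 in Control, 15.8 ± 9.61 in Met and 78.5 ± 45.0 in Met-Met (2.22 for Met-Met against Met, adjusted p = 0.00893). By the same limma fit, Met-Met against Control gave 1.49 (adjusted p = 0.0318) and Met against Control −0.74 (adjusted p = 0.229, not called).

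**Figure D5:**
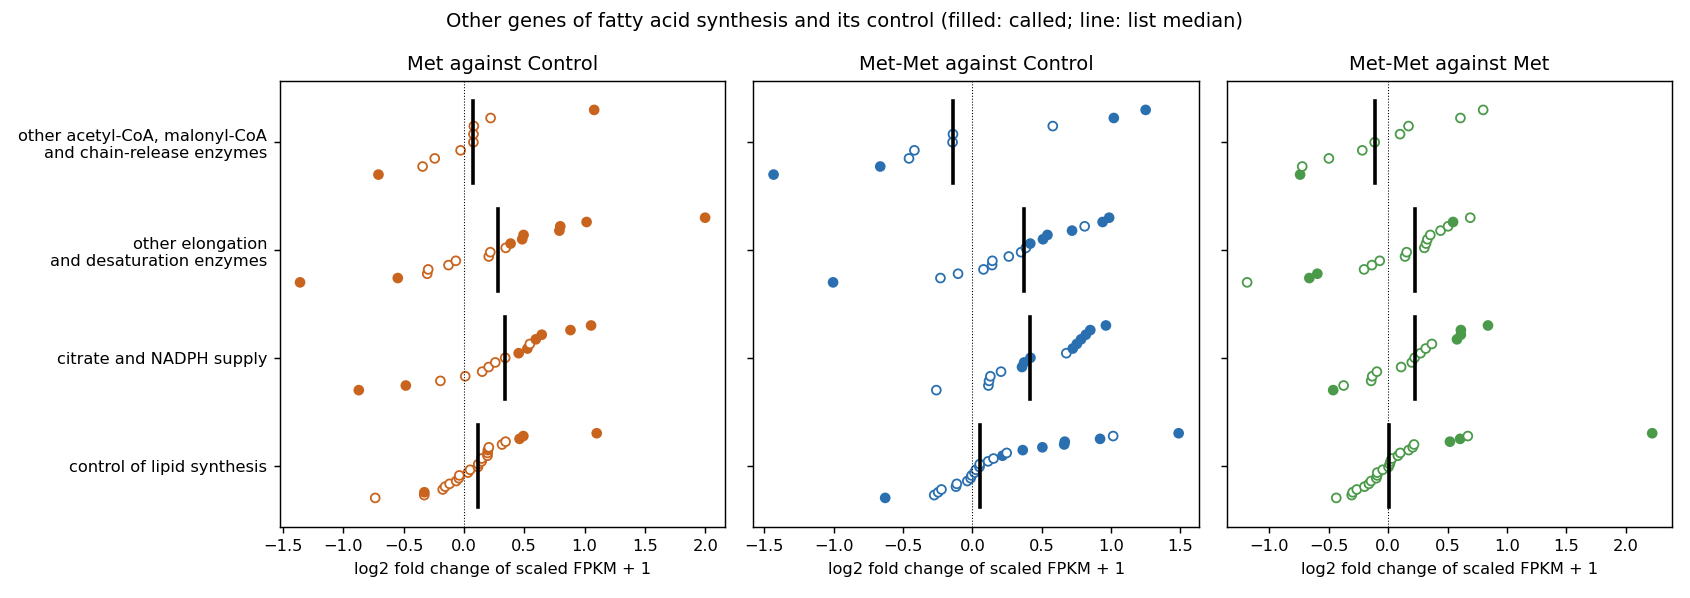
Each point is a gene of 1 of 4 lists, placed by its log2 fold change of scaled FPKM + 1 in the comparison named above the panel, with filled points called and a line at the list median. The citrate and NADPH list has its medians at 0.34, 0.42 and 0.22, and the point at 2.22 in the right panel is Insig1.

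The 10 genes did not share a single pattern over the libraries. By the Pearson correlation of log2(scaled FPKM + 1) over the 12 libraries, given as a measure of likeness without a test, Acly and Slc25a1 were the most alike pair among them (0.92), followed by Acly and Thrsp (0.88), Scd2 and Thrsp (0.86) and Srebf1 and Thrsp (0.85). These values share library composition and the differences between groups. Among 7821 other genes averaging 5 FPKM or more, those most like Acly were Pgd (0.96) and Tpi1 (0.95), enzymes of the pentose phosphate pathway and glycolysis. Those most like Slc25a1 were Me1 (0.92), the malic enzyme, and Rtp4 (0.91). Acss2 was most like the elongase Elovl6 (0.94) and Snx1 (0.89), and Thrsp most like hexokinase 2, Hk2 (0.94), and Msmo1 (0.93), an enzyme of cholesterol synthesis. Elovl5 was most like Atp2b2 (0.98), the calcium pump of the apical membrane, and Acadsb (0.98). Scd1 had Myo5a (0.92) and Hspg2 (0.91), Scd2 had Rnf34 (0.96) and Taco1 (0.94), and Srebf1 had Ints13 (0.94) and Polr3k (0.93). The highest values for Acaca, with Tspan15 (0.81) and Stxbp2 (0.80), and for Fasn, with Tmem120b (0.84) and Keap1 (0.82), were lower than those of the other 8 genes.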

How the data were processed

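RNA was sequenced from 12 mammary gland libraries, 4 per group. The authors deposited FPKM for 55869 protein-coding transcripts, each library in its own table. StringTie 1.3.1, HISAT2 2.0.4 and Bowtie2 2.2.8 are listed in the submitters' processing notes, with mm9 and GRCm38 as builds and no roles, so counting rules, strand and filters are not given in the sources used here. FPKM depend on each library's most abundant genes, and milk protein transcripts are among them here, so libraries were rescaled. FPKM were summed per gene, divided by the library's median ratio to the mean library over the genes averaging 1 FPKM or more, and fitted as log2(FPKM + 1) by limma 3.58.1 (R 4.3.3). All 12 libraries shared a model of 3 group means with an intensity trend. The pseudocount understates changes of low genes. For ratios, an exact permutation test (two-sided, scipy 1.17.1) enumerated all 70 ways to split 8 libraries. Gm26917 came from the authors' deposited table of annotated lncRNAs in FPKM. Alternatives were other scalings, pseudocounts, filters, a replicate block, no trend, 1 transcript per gene, marker covariates, the 8 libraries of a comparison alone and fits without single or grouped libraries. Members, lists and alternatives were chosen with earlier results of these data known.

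The text names the 10 members, and from each pathway list up to 4 called genes with the smallest p in Met against Control and up to 2 more in Met-Met against Control. It also names up to 3 of the highest markers of a list given beside a result, and the 2 genes most like each member. Markers are reported for luminal, secretory and myoepithelial cells, adipocytes, fibroblasts, macrophages, erythrocytes, B cells, skeletal muscle and skin keratinocytes. No library of a member's group of 4 stood apart by Dixon's test at its 95% critical value of 0.829. Promoters came from RefSeq, build GRCm38.p6. Figures were drawn with matplotlib 3.10.9 in Python 3.11.15.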

Additional observations from a re-analysis of the deposited data

How the results depend on the processing

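Of the fold changes of the 10 genes under 26 alternatives in 3 comparisons, 675 kept direction and side of the threshold, 44 lost a call, 25 gained one and 36 changed sign. The sign changes were all of differences not called. Among the ratios 105 values were kept and 3 changed sign. Ratio tests without libraries or with the replicate block had too few arrangements to reach an adjusted p under 0.05. For these the count of kept values reflects direction alone. Causes were not tested.

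With FPKM as deposited, 4651 genes were called in Met against Control (352 higher, 4299 lower), 2082 in Met-Met against Control (499 and 1583) and 1830 in Met-Met against Met (1556 and 274), and 6 members in the last. Quantile normalization called 2 members in Met-Met against Control, beside 2125 of all 11809 genes, and 4 in Met-Met against Met, beside 1229. With a mean of at least 5 FPKM, which tests fewer genes, 1969 and 1555 genes were called against Control. The adipocyte covariate called 6 and 0 genes and 0 and 0 members against Control, where limma gave 1607 and 1353 genes at an unadjusted p under 0.05. The B cell covariate called 1511 and 1492 genes. Without the 6 libraries with lymphocyte markers, 8, 5 and 450 genes and 0 members were called in the 3 comparisons, with 2036, 1497 and 2781 genes at an unadjusted p under 0.05. In Met-Met against Met, 910 genes were called without the 3 libraries with high Gm26917 and 746 with its 8 libraries alone. There 1 member was called with no filter, no intensity trend, the B cell covariate, 1 transcript per gene or the 8 libraries alone. Genes called beside it were 1249 of 18103 with no filter, and 1334 of 11809 with no intensity trend. They were 1377 of 11809 with the B cell covariate, 987 of 11432 with 1 transcript per gene and 746 of 11809 with the 8 libraries.

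Deviations of same-numbered libraries from their group means correlated at −0.41 to 0.17 over the tested genes, and the main fit used no pairing. The labels do not say what the numbers stand for. Differences between single libraries, such as those in B cell or muscle markers, enter these correlations, so they cannot show whether same-numbered libraries share a batch. With the replicate number as a block, 2446, 1690 and 846 genes and 2, 3 and 1 members were called. The members not called under the block were Thrsp in Met-Met against Control (adjusted p = 0.0520) and Scd2 in Met-Met against Met (0.0626).

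Leaving out 1 library at a time gave 2114 to 3570, 1315 to 2732 and 666 to 2302 genes, and 2 to 3, 3 to 5 and 1 to 5 members. The log2 ratio of Scd1 to Scd2 differed by −0.95 to 0.16, −2.21 to −2.02 and −2.25 to −1.14, that of Fasn to Acaca by −0.13 to 0.0040, 0.12 to 0.28 and 0.18 to 0.34, and that of Acly to Acss2 by 0.71 to 0.91, 0.54 to 0.82 and −0.27 to 0.0085. The 3 ratios that changed sign did so without Met 4, Control 1 and Met-Met 3.

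In Met against Control, Acaca was −0.240 as deposited, −0.267 with quantile normalization, −0.0100 and −0.123 with the adipocyte and B cell covariates, −0.0288 without the 3 and −0.188 without the 6 libraries. Fasn was, in the same order but for the adipocyte covariate, −0.301, −0.371, −0.154, −0.141 and −0.305, and −0.0561 with a mean of at least 5 FPKM and −0.0021 with 1 transcript per gene. Without 1 library it ran from −0.0803 (Met 4) to 0.128 (Met 2), with −0.0299, −0.0197 and −0.0035 without Control 2, Control 3 and Met 1. Thrsp was −0.214 as deposited, −0.229 with quantile normalization and −0.232 without the 3 libraries, and without 1 library ran from −0.0951 (Met 4) to 0.331 (Met 2), with −0.0055 without Control 4. Acss2 was 0.672 with the adipocyte covariate. In Met-Met against Control, Acaca was −0.0608 as deposited, −0.0871 with quantile normalization, −0.0220 and −0.0878 with the adipocyte and B cell covariates, and −0.0176 (without Met-Met 4) to 0.218 (Met-Met 3), and Scd1 was 0.0393 with the adipocyte covariate. In Met-Met against Met, Acaca was −0.0120 with the adipocyte covariate, −0.0183 with 1 transcript per gene, and −0.0895 (without Met-Met 4) to 0.146 (Met-Met 3), with −0.0019, −0.0602, −0.0029 and −0.0437 without Met 1, Met 2, Met-Met 1 and Met-Met 2. Read depth is unknown, so no limit on low genes can be given.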
